A study of Mus musculus with 12 samples.

Results

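The effect of a self antigen on double-positive thymocytes was measured as the difference between 3 arrays of B10 TCR:HEL double-positive cells and 3 arrays of B10 TCR double-positive cells. These 6 arrays were chosen by their sample titles out of 12 in the series, and TCR:HEL minus TCR was computed for all 22511 non-control probe sets of the Affymetrix MOE430B chip, of which 13703 passed a filter on low signals. B10 TCR mice carried a transgenic T cell receptor, and B10 TCR:HEL mice carried the same kind of receptor together with the HEL transgene. The receptor transgene was thus shared by both groups, and no group without it was compared. All mice were 6 to 8 weeks old and neither mice nor cells were treated. The other 6 arrays held CD4 single-positive thymocytes of the same kinds of mice, which the labels assign to positive selection without HEL and to negative selection with it. The labels place the double-positive cells of both kinds before selection. The promoter that drives HEL, the number of mice behind each sample and the sorting gates are not given in the sources used here. HEL is the usual abbreviation of hen egg lysozyme, which the labels do not spell out.

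Double-positive thymocytes carry both CD4 and CD8 and are the first thymocytes with a complete alpha-beta T cell receptor. A weak signal through that receptor rescues them from death and moves them to the single-positive stage, whereas a strong signal from self antigen can lead to deletion or to diversion into regulatory lineages. Strong signals are known to induce transcription factors of the Nr4a and Egr families, Ikzf2 (Helios), MAP kinase phosphatases and the surface protein CD69. The comparison asks whether such changes, or any others, can be seen before the single-positive stage.

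Of 9 genes listed to check the double-positive label, 3 were measured, namely Cd8a, Arpp21 and Themis. Cd8a, the alpha chain of the CD8 coreceptor, had signals of 6684, 8034 and 7217 in TCR and 5531, 5188 and 6118 in TCR:HEL double-positive cells. In single-positive cells its mean was 651 in TCR and 1118 in TCR:HEL, so every double-positive array lay above both single-positive means. Arpp21, a phosphoprotein gene highly expressed in cortical thymocytes, had signals of 204, 156 and 109 in TCR and 340, 200 and 337 in TCR:HEL double-positive cells. Its single-positive means were 24.5 and 102. Themis, a signalling protein needed for selection, had 2915, 2891 and 2541 in TCR and 5161, 1883 and 1344 in TCR:HEL double-positive cells. Its single-positive means were 1790 and 2340, so the stages overlapped for this gene, and 1344 lay below both means. Its log2 difference between the double-positive groups was -0.23, and 0.17 without TCR:HEL replicate 3. The other Themis probe sets gave 0.10, -0.34 and 0.34. Cd4, Rag1 and Rag2 had no probe set among those used here.

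No gene passed the test between TCR:HEL and TCR double-positive cells. With limma, 0 of 13703 probe sets (0.0%) had a Benjamini-Hochberg adjusted p under 0.05, and the smallest adjusted p was 0.320. In single-positive cells the same model called 30 probe sets (0.219%), with 20 higher and 10 lower in TCR:HEL. At an unadjusted p under 0.05, 339 probe sets (2.47%) stood out in double-positive cells, 176 of them higher (1.28%) and 163 lower (1.19%) in TCR:HEL. In single-positive cells 985 did (7.19%), where 5% is the share that the threshold itself allows without any difference. The double-positive share was thus below that level, and a fit to the 6 double-positive arrays alone, with their own estimate of the spread, gave 375 probe sets at an unadjusted p under 0.05 and 0 calls. The 3 TCR:HEL arrays lay wholly above or wholly below the 3 TCR arrays at 1051 probe sets (7.67%) in double-positive cells, with 514 higher (3.75%) and 537 lower (3.92%), and at 1457 (10.6%) in single-positive cells. With 3 arrays against 3, such separation also arises without any difference, so a lack of overlap is a description and not a test.

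The differences themselves were also small in double-positive cells. A log2 difference beyond 1 in either direction was found at 234 probe sets (1.71%), against 673 (4.91%) in single-positive cells, and the SD of the log2 differences over all probe sets was 0.37 against 0.49. The median standard error of a double-positive log2 difference was 0.36, and its 95% interval reached a median of 0.77 to each side. That interval lay within 1 log2 unit of 0 at 6539 probe sets (47.7%) and within 2 log2 units at 96.3%. The 6 arrays did not fall into their groups on the first principal component, which took up 29.0% of the variance. TCR arrays lay at -25.4, 51.1 and 2.46 and TCR:HEL arrays at 4.64, 7.43 and -40.3. Pearson correlations of log2 signals ran from 0.860 to 0.891 within TCR, from 0.868 to 0.892 within TCR:HEL and from 0.839 to 0.910 between them.

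**Figure D1:**
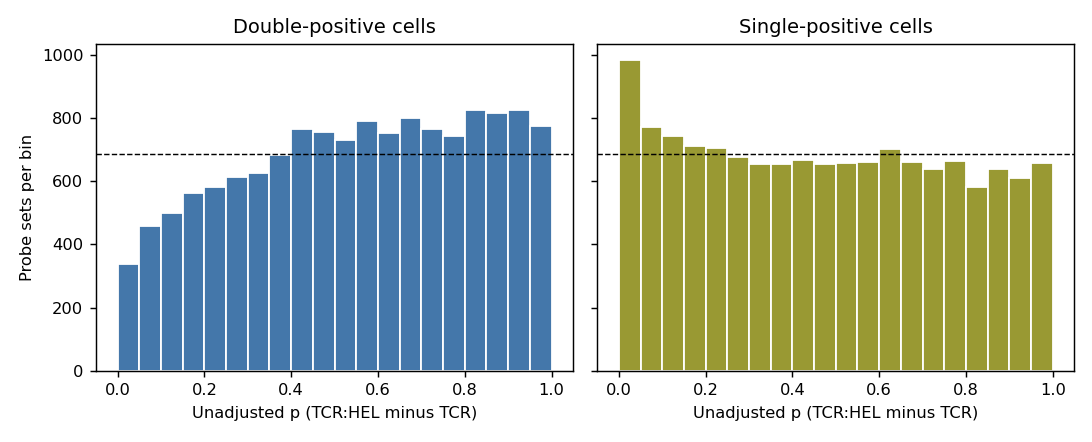
Number of probe sets (vertical axis) by unadjusted limma p (horizontal axis, 20 bins from 0 to 1) for TCR:HEL minus TCR in double-positive and in single-positive cells, with a dashed line at the 685 probe sets per bin of an even spread. The lowest bin held 339 probe sets in double-positive cells, below that line, and 985 in single-positive cells, above it.

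Other measures differed among the double-positive arrays as well. The ratio of 5' to 3' signal of Gapdh, a measure of RNA length after amplification, was 0.107, 0.429 and 0.241 in TCR and 0.195, 0.453 and 0.421 in TCR:HEL, so the groups overlapped. Median signals per array lay between 62.9 and 69.9. TCR:HEL replicate 3 was hybridized in a later period than the other 5 double-positive arrays, and is called the later array. Without it the log2 difference changed sign at 16 of 133 named probe sets and moved by over 0.25 at 34, and these values are given beside the genes described. The median move was 0.12. Single-positive arrays fell in periods 1, 2 and 3 for TCR and in periods 1, 3 and 3 for TCR:HEL. Double-positive arrays fell in period 2, except the later array in period 3. Gapdh ratios of single-positive arrays ran from 0.038 to 0.443. Stage and period thus partly go together, and the part of period in levels compared across stages was not tested. Where a marker of another cell type is described, fewer cells of a type and less RNA per cell cannot be told apart. The arrays are labelled as biological replicates, and their number limits the precision of every value.

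The gene with the smallest p was Trav6-3, a variable segment of the T cell receptor alpha chain. Its signals were 309, 354 and 336 in TCR and 131, 83.3 and 53.1 in TCR:HEL double-positive cells. The groups did not overlap, and the log2 difference was -1.80 ± 0.30 (SE, 3 arrays against 3), with a limma adjusted p of 0.320. Over 18 alternative settings the difference lay between -2.07 and -1.40 and the adjusted p between 0.0968 and 1.00. Within the hybridization period that held 5 of the 6 arrays it was -1.53. In single-positive cells the means were 132 in TCR and 61.0 in TCR:HEL, a log2 difference of -0.96 that was not called either. Of the other T cell receptor segments measured, Trav13-5 differed by 0.31 and the groups did not overlap, in the opposite direction.

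All other genes described from the top of the list had a limma adjusted p of 1.00 after rounding, and their values are given as measurements only. Acoxl, an acyl-CoA oxidase-like gene, had signals of 36.3, 151 and 78.1 in TCR and 13.3, 8.69 and 15.4 in TCR:HEL, a log2 difference of -1.73 ± 0.39. In single-positive cells its mean was higher in TCR:HEL, at 390 against 180. Ipo11, which encodes the nuclear import receptor importin 11, had signals of 121, 99.2 and 61.2 in TCR and 15.04, 9.27 and 8.67 in TCR:HEL, a log2 difference of -1.99 ± 0.53. For both genes every TCR:HEL double-positive signal lay far below the array medians. Celf5, an RNA-binding protein gene, had signals of 94.1, 88.9 and 98.7 against 17.6, 37.9 and 38.6. Zbtb3, a zinc finger factor, had 108, 109 and 94.1 in TCR against 41.7, 42.3 and 44.1 in TCR:HEL, and these replicates were among the closest of the genes named. Its log2 difference was -1.03 ± 0.34, and in single-positive cells it was -0.05.

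Several genes with a small p in this direction had other probe sets with a smaller difference or with the opposite sign. Klhl28, a Kelch-like family gene, had signals of 375, 637 and 493 in TCR and 271, 172 and 140 in TCR:HEL, a log2 difference of -1.31 ± 0.30. Its other 3 probe sets gave -0.33, -0.07 and -0.73. Ccdc184 gave -2.13 at a dim probe set and -0.06 at its brightest. Ssh1, a cofilin phosphatase gene, gave -1.58 at one probe set and 0.23 and 0.00 at the others. Amigo1, an adhesion gene, gave -1.43, -0.82 and -0.16, and without the later array the first was -1.72 and the last 0.09.

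Among the genes with higher values in TCR:HEL double-positive cells, Pyroxd2, an oxidoreductase gene, had the smallest p. Its signals were 44.0, 158 and 40.4 in TCR and 327, 345 and 216 in TCR:HEL, a log2 difference of 1.87 ± 0.44, while its other probe sets gave -0.55 and -0.05. Tmem61, which encodes a transmembrane protein, had signals of 22.04, 22.8 and 29.5 in TCR and 126, 141 and 94.4 in TCR:HEL, a log2 difference of 1.73 ± 0.45. It was at means of 46.5 and 42.0 in single-positive cells, so no such gap was seen there. Fam162a, a mitochondrial protein gene, had signals of 14.8, 16.4 and 9.69 in TCR and 82.3, 53.0 and 106 in TCR:HEL. Cab39l, a partner of the kinase LKB1, had 10.1, 13.3 and 10.1 in TCR and 58.4, 56.0 and 46.8 in TCR:HEL. Fam162a was below the array medians on every TCR array. Cab39l was below them on every double-positive array of both groups and passed the filter through single-positive arrays. Rtel1, a telomere helicase gene, gave 1.31 at one probe set (1.03 without the later array) and 0.32, -0.14 and -0.12 at the others. Slc10a7, a solute carrier gene, gave 1.27 at one and -0.28 and -0.78 at the others. Ano3, an anoctamin gene, and Zswim5, a zinc finger gene, differed by 1.15 and 1.19 and had 1 probe set each. Without the later array Ano3 differed by 1.42.

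**Figure D2:**
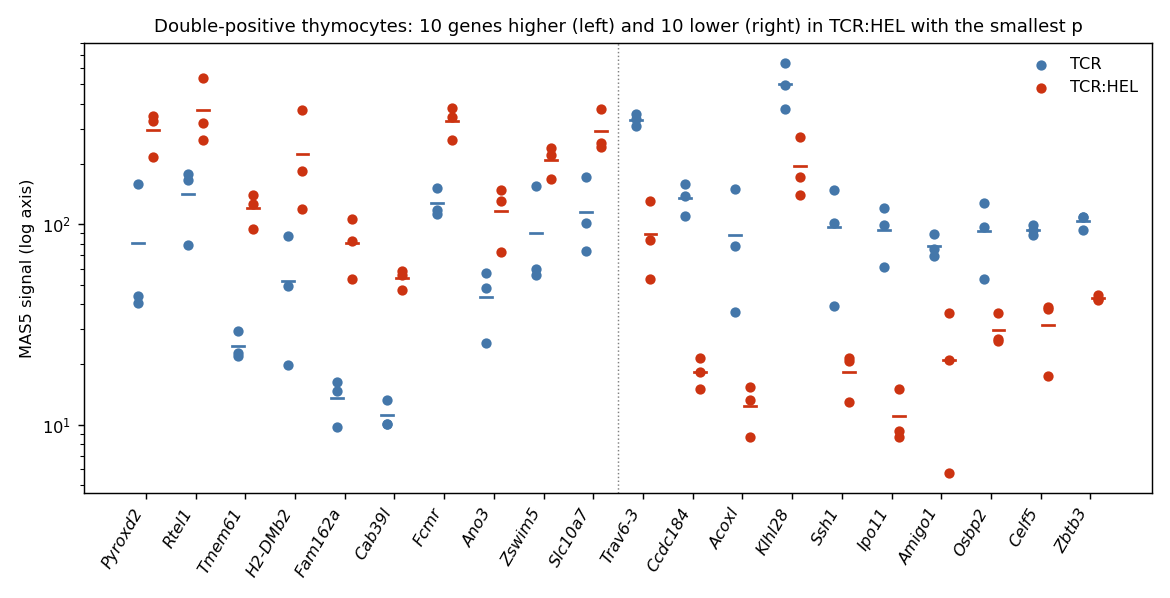
MAS5 signal (vertical log axis) of the 10 genes higher and the 10 genes lower in TCR:HEL double-positive cells with the smallest p among genes whose groups did not overlap; points are single arrays, 3 of TCR and 3 of TCR:HEL, and bars are group means. Groups do not overlap because the genes were chosen so, many signals lie under the array medians of 62.9 to 69.9, and none of the genes was called.

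The genes that distinguished TCR:HEL from TCR single-positive cells were then read in double-positive cells. This list came from the other 6 arrays, and only the estimate of the spread was shared. Of its 30 probe sets, 23 had the same sign in double-positive as in single-positive cells, namely 14 of the 20 higher and 9 of the 10 lower, beside 51.0% of all probe sets. The median log2 difference of the 20 was 0.11 in double-positive cells against 2.44 in single-positive cells, and that of the 10 was -0.51 against -1.91. Over all probe sets the double-positive median was 0.02, and 52.4% were positive. In double-positive cells 3 of the 30 had an unadjusted p under 0.05, beside 2.47% of all, and 1 of these, Osbp2, had the sign opposite to its single-positive change. The others were Gm11346 and a probe set without a gene symbol, which differed by -0.69 and -0.57. Both had the sign of their single-positive change, with overlapping groups, and neither was called in double-positive cells. At 3 of the 30 the groups did not overlap, beside 7.67% of all, and of these Osbp2 and Nrp2 had the opposite sign and Mn1 the same. At all 30 the 95% interval of the double-positive difference excluded the single-positive size. That interval leaves out the error of the single-positive size itself. In the test of the stage difference, which holds both errors, 1 of the 30 was called, namely Osbp2. The single-positive sizes were picked as large, so they overstate the gap between stages. Trpm1, Arhgap20 and the called probe sets of Nr4a2 and Nrp2 were below the median on every double-positive array. They passed the filter through single-positive arrays. The called Crispld2 probe set was above the median on 1 of the 6 double-positive arrays, and Osbp2 and Chd7 were on 2. Most double-positive values of all these genes lie near the floor, so the medians of the 20 and of the 10 and the intervals say little for them.

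Ikzf2, which encodes the Ikaros family factor Helios, had signals of 2266, 2248 and 2040 in TCR and 3307, 2367 and 1988 in TCR:HEL double-positive cells. The groups overlapped, and the log2 difference was 0.19 ± 0.26, with a 95% interval from -0.36 to 0.74. Its single-positive means were 1168 in TCR and 6197 in TCR:HEL, so the double-positive levels of both groups lay between them. A second Ikzf2 probe set that was called in single-positive cells differed by 0.52 ± 0.51 in double-positive cells. Dusp4, a phosphatase of nuclear MAP kinases, had signals of 439, 443 and 889 in TCR and 729, 845 and 875 in TCR:HEL double-positive cells. Its log2 difference of 0.53 ± 0.29 was the largest of the 20 in the direction of the single-positive change, with a 95% interval from -0.09 to 1.15. TCR replicate 3 was as high as the TCR:HEL arrays. In single-positive cells the Dusp4 means were 204 and 1536.

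The remaining genes that were called with a higher level in single-positive cells of TCR:HEL mice had small differences of either sign in double-positive cells, apart from Nrp2 and Osbp2, which were lower. Niban1, a stress-response gene, had signals of 138, 96.5 and 218 in TCR and 190, 130 and 136 in TCR:HEL, a log2 difference of 0.06 ± 0.29 against 2.51 in single-positive cells. Trpm1, a cation channel gene, had signals of 15.2, 27.2 and 21.8 in TCR and 30.7, 19.6 and 22.5 in TCR:HEL. All 6 were below the array medians, whereas the TCR:HEL single-positive mean was 1327. Prr5l and Stx11, genes of a subunit partner of mTORC2 and a syntaxin, differed by 0.26 and 0.16, the latter by -0.04 without the later array. Other probe sets gave -0.07 and 0.51 for Prr5l and -0.18 for Stx11. The probe set of Crispld2 that was called in single-positive cells differed by 0.36, and by -0.18 without the later array. That of the neuropilin gene Nrp2 differed by -0.65 without overlap of the groups. Its signals were 46.0, 30.1 and 28.9 in TCR and 21.2, 16.4 and 11.7 in TCR:HEL, all below the array medians. The brightest Nrp2 probe set differed by 0.05, or 0.52 without the later array.

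Several of the genes called in single-positive cells act in mitosis. Cenpe, the kinetochore motor, had means of 97.6 and 517 in TCR and TCR:HEL single-positive cells, and signals of 705, 502 and 626 in TCR and 1252, 482 and 353 in TCR:HEL double-positive cells. Its double-positive log2 difference was -0.01 ± 0.40, and 0.35 without the later array. Sgo1, which protects centromere cohesion, differed by -0.05 and by 0.17 without that array, and the helicase gene Pif1 by 0.40. The called probe sets of Cdca8, the borealin subunit of the chromosomal passenger complex, differed by -0.07 and 0.32, the latter by 0.04 without the later array. Its brightest probe set differed by -0.30 ± 0.37, with every TCR:HEL signal below every TCR signal.

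The genes called lower in TCR:HEL single-positive cells had mostly negative differences in double-positive cells. Chd7, a chromatin remodeller, had signals of 164, 24.7 and 84.6 in TCR and 28.5, 26.3 and 27.0 in TCR:HEL double-positive cells, a log2 difference of -1.06 ± 0.56 against -2.99 in single-positive cells. TCR replicate 2 lay under all TCR:HEL arrays. Tmie, a transmembrane gene of inner ear hair cells, had signals of 196, 133 and 116 against 153, 116 and 48.5, a log2 difference of -0.51 against -3.13. Without the later array it was -0.11. Mn1, a transcriptional coregulator, had 90.9, 113 and 91.8 in TCR against 47.6, 68.4 and 76.4 in TCR:HEL, which do not overlap, and differed by -0.53 ± 0.31. Als2cl and Cpm, a carboxypeptidase gene, differed by -0.51 and -0.25, and Rflnb by -0.01, or -0.32 without the later array. None of these passed the test in double-positive cells.

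**Figure D3:**
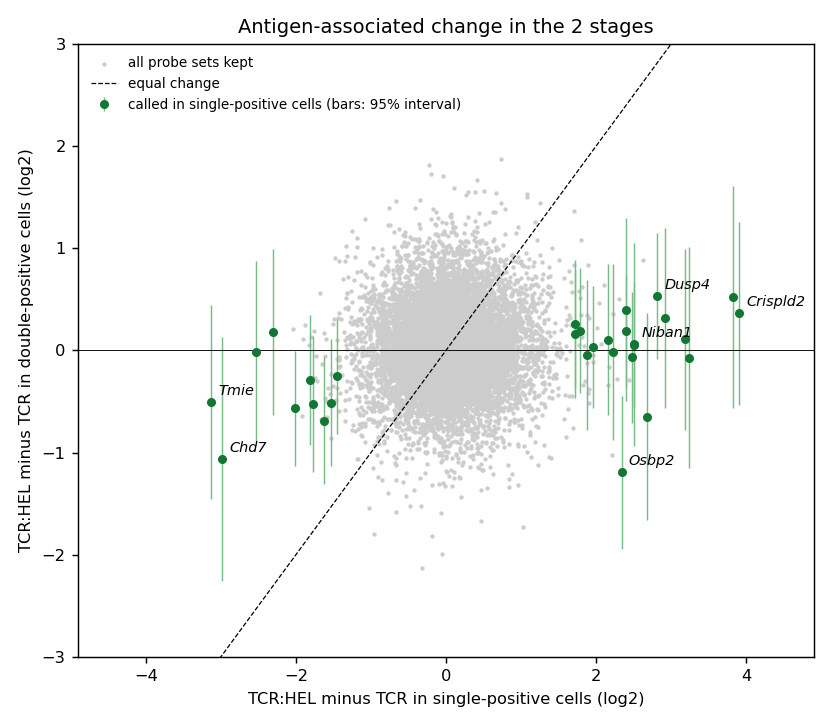
Log2 difference of TCR:HEL from TCR in the single-positive stage (horizontal axis) and in the double-positive stage (vertical axis); grey points are all 13703 probe sets, green points the 30 called in single-positive cells with the 95% interval of their double-positive value, and the dashed line marks equal change. The green points run from -3.13 to 3.90 across the plot but only from -1.19 to 0.53 up it.

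Osbp2, an oxysterol-binding protein gene, had differences of opposite sign in the 2 stages. Its signals were 96.6, 53.3 and 128 in TCR and 36.1, 26.1 and 26.9 in TCR:HEL double-positive cells, a log2 difference of -1.19 ± 0.35 that was not called. In single-positive cells the means were 25.4 in TCR and 193 in TCR:HEL, a called log2 difference of 2.34. The stage difference, single-positive minus double-positive, was 3.53 ± 0.50 with a limma adjusted p of 0.0487. It was the only one of 13703 probe sets called in that contrast (0.0073%), where 609 (4.44%) had an unadjusted p under 0.05. It was called in 4 of 22 alternative settings, with adjusted p from 0.0174 to 0.295. Osbp2 exceeded the array medians only on 2 TCR double-positive arrays and on the TCR:HEL single-positive arrays, and passed the filter through these. The lower group of each stage thus lies near the floor, which limits what the sizes of both differences say. Ikzf2, Niban1, Crispld2 and Cdca8 each had a probe set with a limma adjusted p of 0.0715 for the stage difference. That of Crispld2 was called in 3 of 22 alternative settings.

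The promoter sequences of 2 genes are shown, because Nr4a3 is a textbook target of receptor signals that was not raised in double-positive cells by the test and Osbp2 was the gene called in the stage difference. They cover 250 bases before to 50 after an annotated start, from RefSeq on GRCm38.p6, printed 5' to 3' on the gene's strand. Capitals mark matches on either strand to TGACG (the CRE half-site), GGAAAA (an NFAT core) or TGANTCA (AP-1), and these did not overlap each other. TGACG was found in 20.8%, GGAAAA in 23.4% and TGANTCA in 7.81% of 32851 such windows. The Nr4a3 window, chr4:48045055-48045354 on the plus strand, holds 4 matches to TGACG. The first of 3 Osbp2 windows, chr11:3722178-3722477 on the minus strand, holds 1 match to GGAAAA, and the other 2 windows hold none. Among 21 named genes called in single-positive cells 16 had entries, with 22 windows, and in any window 0 of the 16 held TGANTCA, 3 held GGAAAA and 2 held TGACG. Those counts are of genes, some with several windows, and the shares above are of single windows. A match describes these letters only.
Nr4a3: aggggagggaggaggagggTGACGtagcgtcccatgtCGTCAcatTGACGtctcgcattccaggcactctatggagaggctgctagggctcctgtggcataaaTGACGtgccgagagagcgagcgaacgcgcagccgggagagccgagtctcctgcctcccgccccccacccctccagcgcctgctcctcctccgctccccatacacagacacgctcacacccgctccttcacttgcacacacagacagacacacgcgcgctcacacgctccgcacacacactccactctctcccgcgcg
Osbp2: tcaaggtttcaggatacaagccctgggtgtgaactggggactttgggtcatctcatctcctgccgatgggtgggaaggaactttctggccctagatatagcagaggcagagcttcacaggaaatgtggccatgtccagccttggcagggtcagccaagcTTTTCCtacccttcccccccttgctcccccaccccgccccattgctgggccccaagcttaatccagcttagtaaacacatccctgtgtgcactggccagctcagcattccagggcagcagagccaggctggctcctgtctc

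No single gene of the lists described below was called in double-positive cells, and the lists themselves were not tested. Over 18 gene lists and 10 lists of cell markers, 290 distinct genes were measured and 0 were called, beside 0.0% of all 6663 genes. At an unadjusted p under 0.05 there were 10 (3.45%), beside 2.43% of all genes, and 25 had groups that did not overlap (8.62%), beside 7.68% of all, which were 3.35% higher and 4.34% lower. Over all genes the median log2 difference was -0.01 and 48.5% were positive.

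Of 39 transcription factors known to be induced through the receptor 12 were measured, 5 with positive and 7 with negative differences, and 0 had an unadjusted p under 0.05. Their median was -0.11 in double-positive cells and 0.49 in single-positive cells. Nr4a3, an orphan nuclear receptor, had signals of 23.9, 20.7 and 76.5 in TCR and 142, 43.3 and 38.6 in TCR:HEL double-positive cells, a log2 difference of 0.64 ± 0.44, and 0.91 without the later array. The groups overlapped and 1 TCR:HEL array stood above the rest. In single-positive cells its means were 1097 and 4910, so all double-positive signals were far lower. Its relative Nr4a2 differed by 0.49 ± 0.44 at the brightest probe set and by -0.07 at the probe set called in single-positive cells. Egr3, a zinc finger factor, had signals of 56.6, 100 and 171 against 89.9, 109 and 47.4, a log2 difference of -0.30, and -0.01 without the later array. Tox2, an HMG-box factor, had 7903, 5590 and 8098 in TCR against 3140, 6747 and 4147 in TCR:HEL, a log2 difference of -0.67 ± 0.42. Ikzf4, which encodes Eos, differed by -0.26.

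**Figure D4:**
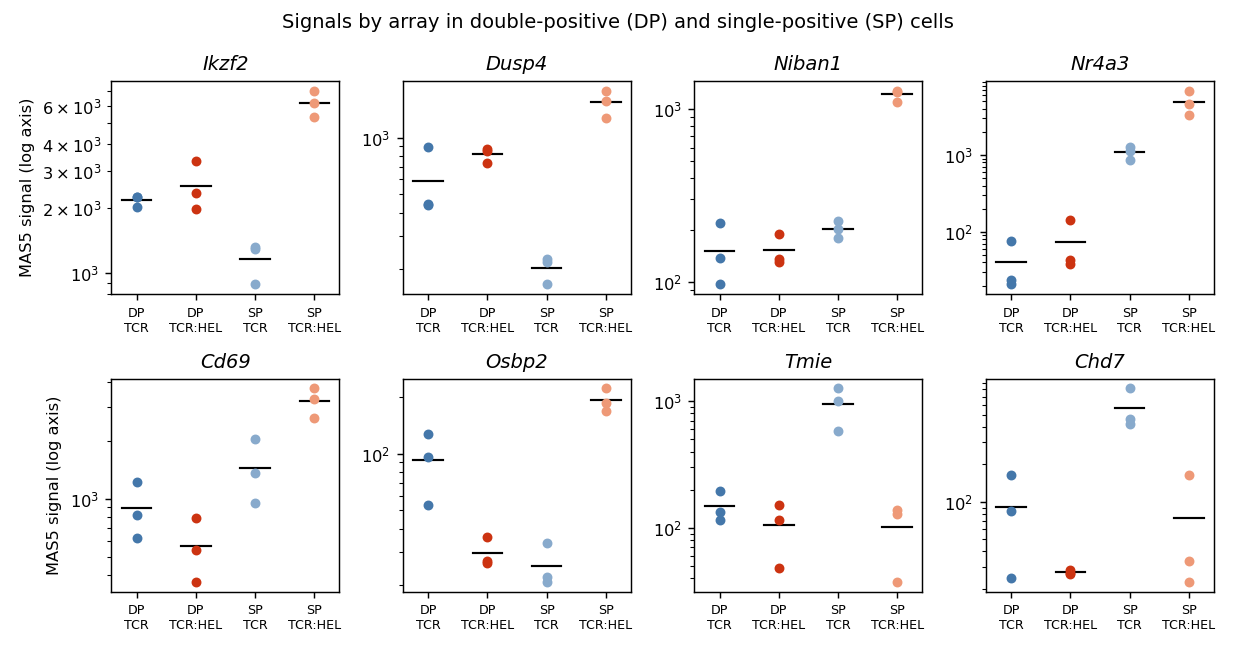
MAS5 signal (vertical log axis) of 8 genes on each array of the 4 groups, with bars at the group means; DP is double-positive and SP is single-positive, and every group has 3 arrays. TCR and TCR:HEL points overlap in double-positive cells for Ikzf2, Dusp4, Niban1, Nr4a3, Cd69, Tmie and Chd7 and are apart for Osbp2, whereas all 8 genes are apart in single-positive cells.

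Among 21 measured regulators that damp receptor and MAP kinase signals, 9 had positive differences, the median was -0.07, and 0 had an unadjusted p under 0.05. Pag1, the membrane adaptor that recruits the kinase Csk, was the only one whose groups did not overlap, with 382, 323 and 321 in TCR and 229, 245 and 206 in TCR:HEL, a log2 difference of -0.56 ± 0.28. Dusp5, a phosphatase of ERK, had signals of 391, 287 and 232 against 193, 375 and 497, a log2 difference of 0.15, and -0.13 without the later array. The adaptor Sla and the G protein regulator Rgs2 differed by -0.49 and -0.55 with overlapping groups. Of 18 measured proximal signalling genes 6 had positive differences and the median was -0.10. Nck2, an adaptor between the receptor and the cytoskeleton, had signals of 471, 614 and 887 in TCR and 350, 253 and 413 in TCR:HEL. Its log2 difference was -0.90 ± 0.35 with an unadjusted p of 0.0212, and in single-positive cells it was 0.62. Tespa1 and Rasgrp1, both needed for signalling in selection, differed by -0.39 and -0.20. The other Tespa1 probe sets gave -0.02 and 0.43.

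All 6 measured receptors for costimulation, inhibition and activation had negative differences, with a median of -0.53 in double-positive and 0.11 in single-positive cells. Icos, a costimulatory receptor, had signals of 2155, 1344 and 1604 in TCR and 1149, 860 and 1141 in TCR:HEL, a log2 difference of -0.67 ± 0.27 with an unadjusted p of 0.0229. Every TCR:HEL signal was below every TCR signal. Cd44, the hyaluronan receptor, had 364, 680 and 683 against 339, 276 and 377, with 1 TCR array inside the TCR:HEL range and a log2 difference of -0.73 ± 0.30. Cd69, an early activation marker, had 628, 1214 and 826 against 538, 790 and 369. Its log2 difference was -0.65 ± 0.35 in double-positive cells, or -0.39 without the later array, and 1.19 in single-positive cells. Neither was called. Slamf6, Cd84 and Btla differed by -0.41, -0.40 and -0.13. The summed signal of the 6 genes ran from 4733 to 5197 on TCR arrays and from 3204 to 3927 on TCR:HEL arrays. These 6 are what was measured of 33 listed receptors, and none passed the adjusted test.

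Genes of cell death and survival were centred near 0. Of 11 measured pro-apoptotic genes 6 had positive differences, with a median of 0.05, and of 14 anti-apoptotic genes 9 did, with a median of 0.04. None of either list had an unadjusted p under 0.05. Bcl2, the survival protein of mature thymocytes, had signals of 807, 736 and 1153 in TCR and 1017, 1166 and 634 in TCR:HEL, a log2 difference of 0.04, and 0.30 without the later array. Fadd, the death receptor adaptor, differed by -0.69 ± 0.58 and the executioner caspase gene Casp6 by 0.62 ± 0.52. Without the later array these were -1.20 and 0.08. Api5, an apoptosis inhibitor gene, differed by 0.86 ± 0.48, where 1 TCR array had a signal of 12.9. Of 16 NF-kB pathway genes 5 were positive, with a median of -0.09, and the groups overlapped for all 16. Tnfaip3, which encodes the inhibitor A20, differed by -0.36 ± 0.33.

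Stage and lineage genes were likewise without a called member. Of 18 genes of the double-positive stage 6 were positive, with a median of -0.05, and of 18 genes of mature single-positive cells 7 were, with a median of -0.07. Arpp21 had the smallest p of the former, with a log2 difference of 0.84 ± 0.41 and overlapping groups. Its other probe set gave -0.40. All 3 probe sets of Cd8a gave negative differences, of -0.38, -0.58 and -0.57, and at the brightest the groups did not overlap. Gpr18, a receptor gene of mature thymocytes, had signals of 812, 627 and 976 against 669, 486 and 475, a log2 difference of -0.55 ± 0.30. Its single-positive means were 7140 and 2515. Of 10 CD4 lineage genes 4 were positive, and of 14 regulatory T cell genes 10 were, with medians of -0.07 and 0.05. Itgae, the alpha chain of CD103 and a gene of CD8 and regulatory T cells, had signals of 263, 157 and 322 in TCR and 429, 337 and 427 in TCR:HEL. It differed by 0.70 ± 0.31 with an unadjusted p of 0.0412, and by 1.15 in single-positive cells, where it was not called.

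Genes of other processes gave few values beyond the spread between arrays. Of 66 measured cell cycle genes 40 had positive differences, with a median of 0.10 in double-positive and 0.64 in single-positive cells. E2f1, a transcription factor of S phase entry, was the only one with an unadjusted p under 0.05, and its difference was negative. It had signals of 133, 151 and 85.4 in TCR and 63.1, 32.2 and 43.7 in TCR:HEL, a log2 difference of -1.16 ± 0.41. E2f1 exceeded the array medians on the 3 TCR double-positive arrays only. It thus passed the filter through the group where it was high, and its p is given as a value only. Of 17 interferon-stimulated genes 5 were positive, with a median of -0.11. Ifi35 had 6668, 8908 and 5402 in TCR against 4661, 5105 and 4648 in TCR:HEL, without overlap, and a log2 difference of -0.51 ± 0.27. Ndufs4, a complex I subunit gene, had 162, 179 and 198 against 114, 122 and 112, a log2 difference of -0.56 ± 0.24, among 12 genes of glycolysis and respiration with a median of -0.12. Of 19 heat shock and unfolded protein genes 8 were positive, and Hspa4l and Ddit3 differed by 0.72 and -0.74, the latter by -1.13 without the later array. The other Hspa4l probe sets gave -0.42 and -0.15. Cytokines, chemokines and their receptors had 10 measured genes with a median of 0.09.

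Markers of antigen-presenting cells had values of both signs. Of 5 measured genes of MHC class II presentation 3 had positive differences, with a median of 0.84, and summed signals ran from 877 to 1124 in TCR and from 748 to 1816 in TCR:HEL, so the groups overlapped. H2-DMb2, a chain of the peptide-loading molecule H2-DM, had signals of 87.0, 19.8 and 49.4 in TCR and 371, 119 and 184 in TCR:HEL, a log2 difference of 1.81 ± 0.48. Its other probe set gave 0.17. H2-Ob and H2-Eb2 differed by 0.96 and 0.84, whereas H2-Aa, the alpha chain of a class II molecule, differed by -0.24 and H2-DMa by -0.41, or -0.80 without the later array. Of 6 B cell markers 4 were positive, with a median of 0.09. Their summed signals were 738 to 831 in TCR and 959 to 1347 in TCR:HEL, which do not overlap. Fcmr was the only 1 of the 6 whose own groups did not overlap, and it was named above for that and its small p. The sums include Fcmr, so their separation does not describe the list as a whole. Fcmr, the IgM Fc receptor, had signals of 113, 118 and 151 in TCR and 342, 379 and 263 in TCR:HEL, a log2 difference of 1.26 ± 0.35, and differed by 1.19 in single-positive cells. Bank1, a B cell adaptor, differed by 0.65, and the B cell factor genes Pax5 and Ebf1 by 0.14 and 0.03. Of 3 dendritic cell and macrophage markers 0 were positive, with a median of -0.11. None of these markers was called, and their part in the other differences was not tested.

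Other cell markers were measured in few genes. Of 6 genes of thymic epithelium and stroma 5 had positive differences, with a median of 0.26, and sums ran from 971 to 2510 in TCR and from 1662 to 3532 in TCR:HEL. Dcn, a matrix proteoglycan of fibroblasts, had signals of 36.7, 28.7 and 48.8 against 62.4, 98.6 and 89.3, a log2 difference of 0.88 ± 0.31. Epcam, an epithelial adhesion gene, had 2012, 1548 and 506 against 1124, 1122 and 2907, with overlapping groups and a log2 difference of 0.40, or -0.05 without the later array. The 4 measured markers of double-negative thymocytes had a median of 0.18. Of the granulocyte and mast cell markers listed 0 were matched to a probe set, and of the erythroid and platelet markers 1 was matched and did not pass the filter on low signals.

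**Figure D5:**
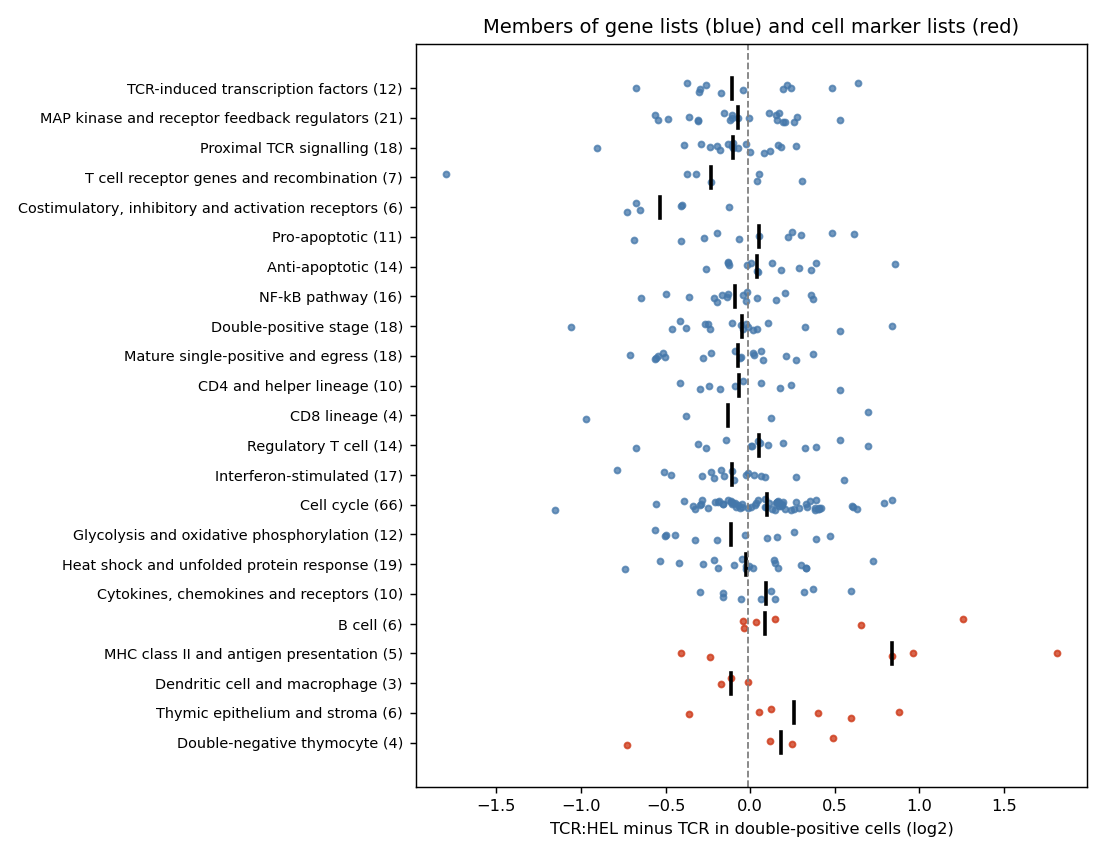
TCR:HEL minus TCR in double-positive cells (horizontal axis, log2) for the measured members of each gene list (blue) and cell marker list (red), with the number measured in brackets, a black bar at each list's median and a dashed line at the median of all genes, -0.01. The list medians farthest from the dashed line are those of the 6 costimulatory, inhibitory and activation receptors at -0.53 and the 5 MHC class II genes at 0.84; no member was called.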

How the data were processed

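RNA of sorted thymocytes was amplified, labelled with biotin and hybridized to 1-colour MOE430B arrays, per the labels' protocols. The deposited values are MAS5 signals, an intensity on a linear scale, per the submitters' processing notes. The 2% trimmed mean was about 150 on every array, so no further scaling was applied. The deposited array records hold other information (chip lot and hybridization day), read only for batches, per the file headers. Of 22575 probe sets, 64 controls were removed, and a probe set was kept (13703 in all) where its signal exceeded the array's median on 3 or more of the 12 arrays. Of these, 9319 had 1 gene symbol, 149 several and 4235 none in the platform annotation, which gave 6663 genes, each read from its brightest probe set. Log2(signal + 16), which understates changes of dim genes, was fitted with limma 3.58.1 in R 4.3.3, with 4 group means over 12 arrays, moderated with a trend (8 residual and 7.01 prior degrees of freedom). Two-sided p-values were adjusted by Benjamini-Hochberg over all probe sets kept with calls at an adjusted p under 0.05. Intervals are 95% intervals of that fit.

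Named genes were the 10 with the smallest p in each direction among genes whose groups did not overlap, all genes called in single-positive cells, check genes, and up to 4 members of each list with the smallest p. For a gene named by its p, the values are those of that probe set. Genes, lists and tests were chosen with earlier results of these data known. H2-Aa, Cd84, Btla and Ebf1 were chosen after their values were seen. The fit was tested on simulated data. Alternatives covered pseudocount, filter, normalization, array weights, blocks, periods and each array left out. No set test was run.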

Additional observations from a re-analysis of the deposited data

Results flagged for a closer look

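Osbp2 was the 1 result for which the effect of TCR:HEL differed between the stages by a test of the difference itself. The single-positive minus double-positive difference of its log2 changes was 3.53, with a limma adjusted p of 0.0487 and adjusted p values from 0.0174 to 0.295 over the alternatives. In double-positive cells each of the 3 TCR:HEL arrays was below each of the 3 TCR arrays, and in single-positive cells the TCR:HEL mean of 193 was above the TCR mean of 25.4. The lower group of each stage was below the array medians on every array, so these values lie near the floor. Osbp2 passed the filter through arrays of the groups where it was high.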

How the results depend on the processing

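The count of 0 called probe sets between TCR:HEL and TCR double-positive cells was found under all 18 alternatives, with the smallest adjusted p between 0.0968, at a pseudocount of 64, and 1.00, and with 265 to 690 probe sets at an unadjusted p under 0.05. The count of 690 came from the fit without the filter, over all 22511 non-control probe sets. The largest count among the other alternatives was 494, with array weights. The fit with the replicate number as a block called 0 as well. Same-numbered arrays of the 2 groups deviated from their group means with r of -0.08, 0.12 and -0.09, so the numbers were not taken as pairs. The stage difference, with 1 probe set called, gave 4 at a pseudocount of 64 and 0 at a pseudocount of 1, without the filter, with the filter on 6 arrays, with quantile normalization, with median centring and with period as a block. Leaving out single arrays gave 0 to 1, and 0 were called in 14 of 22 settings. For the probe sets called in single-positive cells, the double-positive median of those lower was -0.51 and moved to -0.35 at a pseudocount of 64. Leaving out single arrays gave -0.52 to -0.38 for those lower, 0.07 to 0.18 for those higher, and 0.15 to 0.26 with signs turned to the single-positive direction. Among values more than 1 SE from 0, Akt1 changed sign to -0.00277 without TCR:HEL replicate 3, Stk4 to 0.0106 with quantile normalization, and Tespa1 to 0.0304 without TCR replicate 2. The fit within the period of most double-positive arrays leaves out the same TCR:HEL array, so it repeats the Akt1 value. Leaving out 1 array at a time, Akt1 lay between -0.00277 and 0.65 and Tespa1 between -0.67 and 0.0304. None of these was called, and the cause was not tested. Of 2378 values of named probe sets under alternatives, 96 changed sign and 0 were called. With 3 arrays a group, the unadjusted 95% interval reached a median of 0.77 log2 units to each side. That is not the size a call needs, as Trav6-3 was not called at -1.80.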

Other observations

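Beyond the 30 probe sets called in single-positive cells, 57 had an unadjusted p under 0.001 there and were higher in TCR:HEL, and 28 were lower, the called ones included. In double-positive cells 37 of the 57 had positive differences, with a median log2 difference of 0.06 against 1.80 in single-positive cells. Of the 28, 8 had positive differences in double-positive cells, with a median of -0.27 against -1.61.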
